A study of Mus musculus with 7 samples.

Results

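The keratin family was examined on 7 mouse arrays as every gene whose symbol is Krt followed by a number alone. The gene table used for names lists 50 such genes, and 36 of them had a named probe on the array, out of 17047 named genes in all. They comprised 6 of 6 keratins of simple epithelia, 15 of 19 keratins of stratified epithelia, 12 of 22 keratins of hair and its sheath, and 3 genes that were put in no group (Krt88, Krt90 and Krt222). The other 14 keratin genes (Krt24, Krt28, Krt32, Krt36, Krt39, Krt40, Krt42, Krt72, Krt73, Krt74, Krt77, Krt80, Krt81 and Krt83) had no named probe and were not analysed here.

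Keratins are the intermediate filament proteins of epithelial cells. A filament forms only when an acidic type I keratin pairs with a basic type II keratin, and the pairs in use mark the kind of epithelium: Krt8 and Krt18 in single-layered epithelium, Krt5 and Krt14 in the basal layer of stratified epithelium, Krt4 and Krt13 above it in soft squamous linings, and Krt1 and Krt10 above it in cornifying epithelium. The mouse stomach holds both kinds of lining, since its forestomach is covered by cornifying squamous epithelium and its glandular part by a single mucous layer.

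Each of the 7 samples was measured on 1 array and formed a group of its own. Stomach-type tissue grown from mouse embryonic stem (ES) cells was sampled at culture day 42, after growth in medium with 50 ng/mL EGF, 100 ng/mL each of FGF10, Wnt3a and Noggin, and 250 ng/mL R-spondin1. The day 46 sample had the same 42 days followed by 4 days with 100 ng/mL Shh and 10 ng/mL Bmp4, so time and factors differ together between these cultures. The in vivo samples were stomach primordium of embryonic day (E) 9.5 and adult stomach, esophagus, lung and intestine, all of ICR mice. The labels name neither the ES cell line nor the number of animals or cultures behind each RNA, and they give no age in weeks and no region of the stomach or intestine. They do not say which factors of the first medium stayed on after day 42, nor which of the RNA extraction methods they list was used for which sample; the 42 days followed by 4 days are read from the sample title.

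Levels are log2 signals minus the 75th percentile of the array, and a difference of 1 is 2-fold. With 1 array a group there is no test, p-value or standard error. The spread between different probes of the same gene serves as the technical error of a difference. Its standard deviation was 0.51 (log2) between both ES-derived arrays, 0.48 to 0.60 among adult organs, 0.63 to 0.69 between E9.5 stomach and adult organs, and 0.85 to 0.93 between an ES-derived array and any in vivo array. The 4 adult organs lay on a single slide. Day 42, day 46 and E9.5 stomach had a slide each, so slide and sample cannot be told apart for these 3. Both ES-derived arrays were processed with a different version of the scanner software from that used for every in vivo array. Software version therefore cannot be told apart from culture against in vivo tissue. Its part in the differences between them, and in the larger spread between probes there, was not tested. On the day 46 array 10 spike-in probes lay at a median of -2.91 (log2, unscaled) against the median of the other 6 arrays, and 90.6% of named genes were well above background, against 78.4% to 85.2% elsewhere. Of the markers of each organ, 8 of 8 gland markers were above background in adult stomach, 9 of 9 intestinal markers in intestine and 7 of 7 lung markers in lung. In esophagus 11 of 12 squamous and 7 of 7 skeletal muscle markers were above background, but so were 6 of 7 lung markers, with Sftpc at 5.12 and Scgb1a1 at 5.44. Such counts do not single out an organ. Adult stomach also had 6 of 7 lung and 7 of 7 skeletal muscle markers above background, and day 46 tissue 8 of 8 gland markers. Median levels differed more: lung markers lay at 5.32 in lung, -1.23 in esophagus and -4.60 in adult stomach. Skeletal muscle markers lay at 8.85 in esophagus and -1.38 in adult stomach. All of these samples are bulk RNA, in which fewer cells of a type and less RNA per cell cannot be told apart.

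Adult stomach had 31 of 36 keratins well above background, day 46 tissue 32, esophagus and intestine 25 each, day 42 tissue 20 and E9.5 stomach 18, and lung had 17 of 35. The share was 86.1% in adult stomach and 88.9% at day 46, where it was 85.2% and 90.6% over all named genes. It was 69.4% in esophagus and in intestine, against 83.9% and 84.4% of all named genes. At day 42 it was 55.6% against 78.4%, in E9.5 stomach 50.0% against 82.1% and in lung 48.6% against 78.7%. A set of 13 keratins was above background on all 7 arrays, and Krt26, of the hair root sheath, on none. The share of all named genes above background on all 7 arrays was not computed. An alternative chosen after the data were seen took the 13259 brightest of 17047 named genes of every array as detected. That number is 78.7% of the named genes with a value in lung. Keratin counts were then 22 in adult stomach, 23 at day 46, 21 in esophagus, 20 in intestine, 19 at day 42, 18 in E9.5 stomach and 16 in lung. Of the 35 keratins above background somewhere, 12 had their highest detected level in adult stomach, 9 in esophagus, 7 at day 46, 4 in intestine, 2 in lung, 1 at day 42 and 0 in E9.5 stomach. The same tally was not made over all named genes. Some of these first places were not beyond the spread between probes. Krt18, the only entry for day 42, stood 0.18 above adult stomach against a spread of 0.87.

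**Figure D1:**
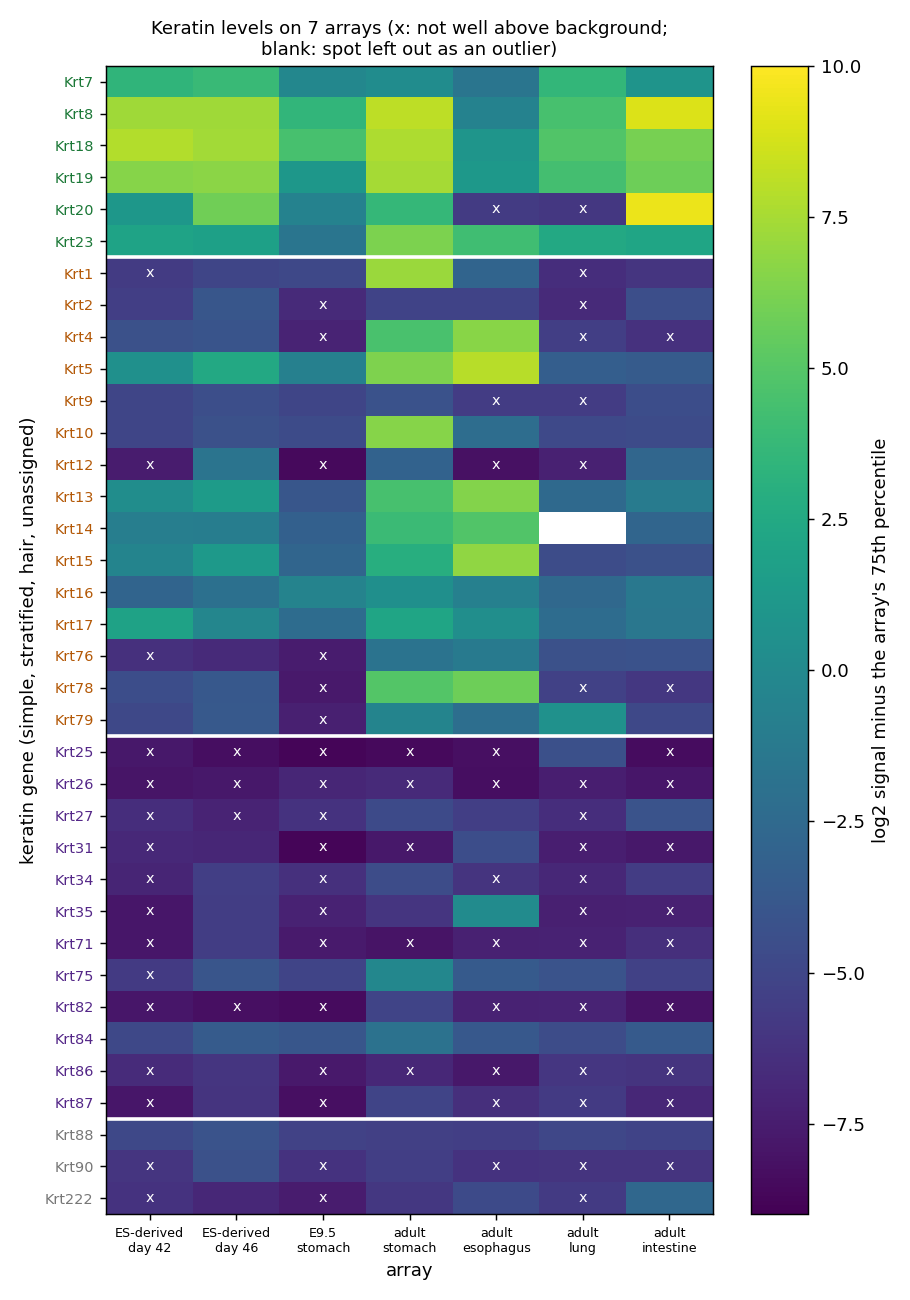
Level of each of the 36 measured keratins (rows, grouped as simple, stratified, hair and unassigned) on the 7 arrays (columns), coloured by log2 signal minus the array's 75th percentile; a cross marks a signal not well above background. Of 6 simple keratins 5 or 6 were above background on every array, and of 12 hair keratins 1 (day 42) to 8 (day 46).

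The simple keratins Krt8 and Krt18, the first filament pair of the embryo and of all single-layered epithelia, were lowest in esophagus. Krt8 lay at 7.29 at day 42, 7.33 at day 46, 3.52 in E9.5 stomach, 8.10 in adult stomach, -0.57 in esophagus, 4.48 in lung and 8.99 in intestine. Its level in both cultures was below adult stomach by 0.81 (day 42) and 0.78 (day 46), which is less than the spread between probes. Krt18 lay at 7.83 at day 42, 7.35 at day 46, 4.47 in E9.5 stomach, 7.64 in adult stomach, 0.92 in esophagus, 4.82 in lung and 6.07 in intestine. Day 42 tissue, adult stomach and day 46 tissue were the highest, in that order, and neighbours in it did not differ beyond the spread between probes.

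Krt19, a type I keratin of ducts and gastrointestinal lining that lacks most of the usual tail domain, lay at 6.56 at day 42, 6.69 at day 46, 1.06 in E9.5 stomach, 7.44 in adult stomach, 1.15 in esophagus, 4.31 in lung and 5.81 in intestine. Adult stomach, both cultures and intestine formed a run in which no neighbours differed beyond the spread between probes, lung lay lower, and esophagus and E9.5 stomach were lowest and level with each other.

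Krt7, a type II keratin of ducts, lung and transitional epithelium, separated the cultures from the organ they were grown to resemble. It lay at 3.47 at day 42, 3.88 at day 46, -0.17 in E9.5 stomach, 0.26 in adult stomach, -1.62 in esophagus, 3.55 in lung and 0.82 in intestine. Both cultures and lung did not differ beyond the spread between probes and stood above the other 4 arrays. The difference to adult stomach was 3.20 at day 42, 3.62 at day 46 and -0.43 in E9.5 stomach. Krt23, a type I keratin less well studied than the others, went the opposite way. It lay at 2.04 at day 42, 1.81 at day 46, -1.63 in E9.5 stomach, 6.22 in adult stomach, 4.21 in esophagus, 2.46 in lung and 2.16 in intestine. Adult stomach was highest and esophagus next, and the cultures were 18.2-fold (day 42) and 21.3-fold (day 46) below adult stomach.

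Krt20, the type I keratin of mature enterocytes, goblet cells and gastric surface cells, had the widest range of the simple keratins. It lay at 1.04 at day 42, 5.88 at day 46, -0.55 in E9.5 stomach, 3.66 in adult stomach and 9.46 in intestine, and was not well above background in esophagus and in lung. Intestine was far above all other arrays, day 46 tissue came next and above adult stomach, and day 42 tissue followed. In E9.5 stomach Krt20 was above background, with a level that was lower than that of the adult organ by 4.21.

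**Figure D2:**
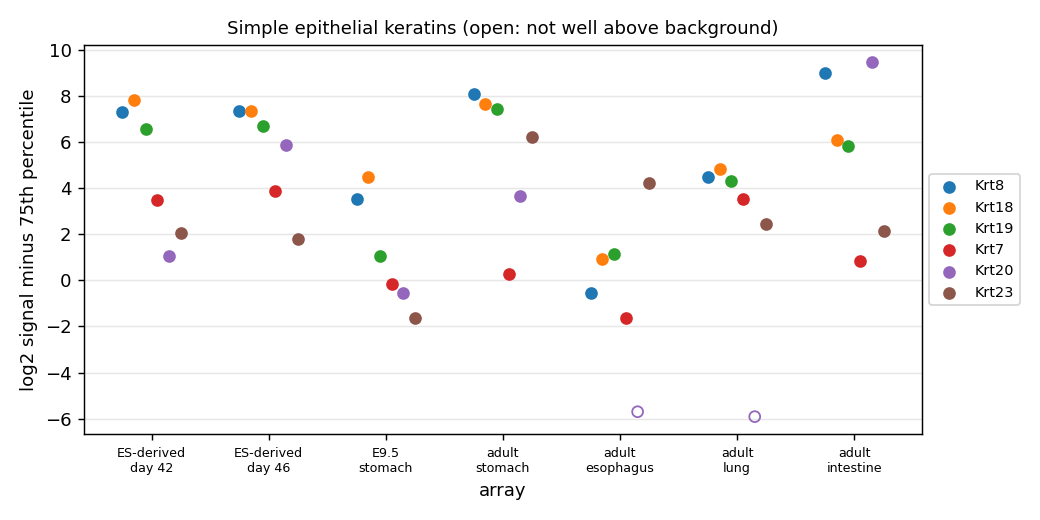
Levels of the 6 simple keratins on each array, as log2 signal minus the 75th percentile, with filled points well above background and open points not. Esophagus had the lowest Krt8, Krt18 and Krt7, and Krt20 stepped from 1.04 at day 42 to 5.88 at day 46.

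Basal keratins, which mark the proliferating layer of stratified epithelium, were highest in esophagus and adult stomach and present at intermediate levels in the cultures. Krt5, the type II keratin of that layer, lay at 0.55 at day 42, 2.45 at day 46, -0.70 in E9.5 stomach, 6.31 in adult stomach, 7.94 in esophagus, -3.32 in lung and -3.56 in intestine. Its partner Krt14 lay at -0.88 at day 42, -0.93 at day 46, -3.18 in E9.5 stomach, 3.99 in adult stomach, 4.86 in esophagus and -2.82 in intestine, and its lung spot was left out as an outlier. Krt15, a type I keratin of resting basal cells, lay at -0.44 at day 42, 1.29 at day 46, -2.82 in E9.5 stomach, 2.89 in adult stomach, 6.82 in esophagus, -4.59 in lung and -4.28 in intestine. For all 3 genes esophagus was highest, adult stomach second and lung or intestine lowest among the arrays with a value, except that Krt14 was lowest in E9.5 stomach, which lay within the spread between probes of intestine.

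The pair of soft squamous linings was likewise highest in esophagus and next in adult stomach. Krt4 lay at -4.28 at day 42, -4.03 at day 46, 4.56 in adult stomach and 6.61 in esophagus, and was not well above background in E9.5 stomach, in lung and in intestine. Its partner Krt13 had 2 probes that disagreed. The brighter probe lay at 0.31 at day 42, 1.41 at day 46, -3.94 in E9.5 stomach, 4.50 in adult stomach, 6.48 in esophagus, -2.50 in lung and -1.13 in intestine, and the other at -3.00 at day 42, -2.95 at day 46, -5.73 in E9.5 stomach, 5.48 in adult stomach, 7.42 in esophagus and -4.46 in lung, and was not well above background in intestine. Both probes placed esophagus first and adult stomach second, but the difference of day 42 from adult stomach was -4.19 with the brighter probe and -8.48 with the other.

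Krt78, a type II keratin of stratified epithelium, lay at -4.54 at day 42, -3.80 at day 46, 4.89 in adult stomach and 5.78 in esophagus, and was not well above background in E9.5 stomach, in lung and in intestine. Its order matched that of Krt4: esophagus, adult stomach, then both cultures at low level. Krt76, a type II keratin of oral epithelium, was also highest in esophagus and adult stomach, at -6.77 at day 46, -1.78 in adult stomach, -1.14 in esophagus, -4.29 in lung and -4.19 in intestine, and was not well above background at day 42 and in E9.5 stomach. Krt79, a type II keratin of hair follicle openings, had its highest level in lung, at -4.85 at day 42, -3.67 at day 46, -0.40 in adult stomach, -2.10 in esophagus, 0.62 in lung and -4.89 in intestine, and was not well above background in E9.5 stomach.

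Krt1 and Krt10, the pair of cornifying epithelium, stood far higher in adult stomach than on the other 6 arrays. Krt1 lay at -5.07 at day 46, -4.91 in E9.5 stomach, 7.14 in adult stomach, -2.89 in esophagus and -6.10 in intestine, and was not well above background at day 42 and in lung. Krt10 lay at -5.02 at day 42, -4.27 at day 46, -4.63 in E9.5 stomach, 6.55 in adult stomach, -2.25 in esophagus, -4.83 in lung and -4.63 in intestine. Adult stomach stood 10.03 log2 units above esophagus in Krt1 and 8.80 in Krt10. The squamous markers had a median of 6.14 in stomach and 5.65 in esophagus, with Krtdap (8.25 and 7.64) and Lor (9.59 and 9.23) high in both organs. The list was not uniform. Ivl lay at -1.97 in stomach and was not above background in esophagus, whereas Sprr1b (-1.81 and 1.67) and Dsg3 (-2.10 and -0.02) were lower in stomach. For Krt10 the other 5 arrays lay between -5.02 and -4.27, and neighbours among them did not differ beyond the spread between probes.

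**Figure D3:**
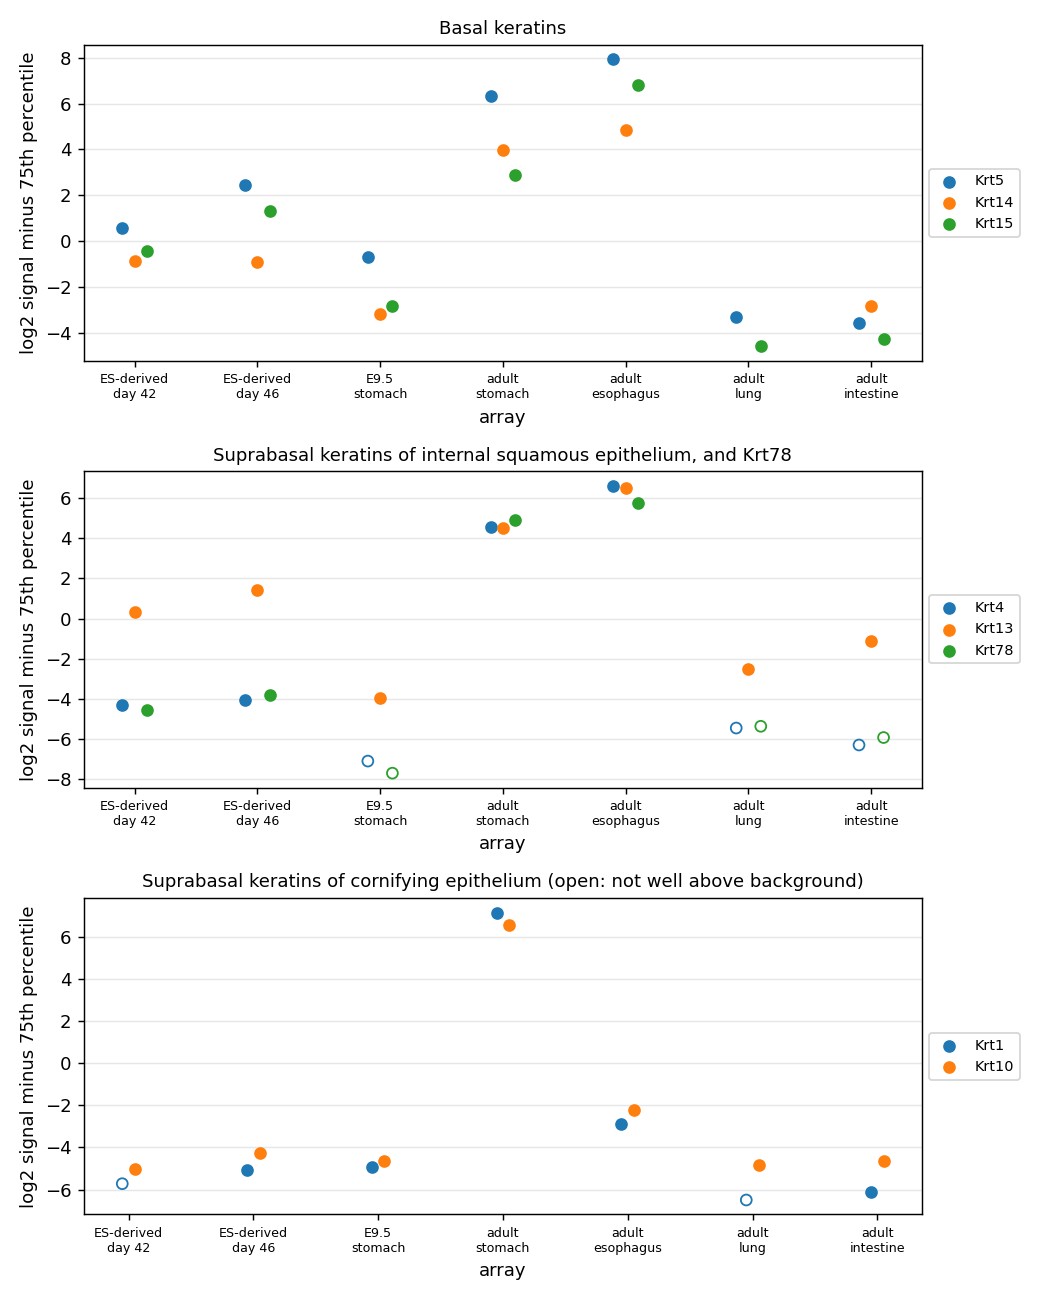
Levels of basal keratins (top), Krt4, Krt13 and Krt78 (middle) and Krt1 and Krt10 (bottom) on each array, as log2 signal minus the 75th percentile; open points were not well above background. Basal keratins, Krt4 and Krt78 were highest in esophagus and adult stomach, while Krt1 (7.14) and Krt10 (6.55) stood apart in adult stomach.

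Krt16 and Krt17 are type I keratins induced in wounded and fast-growing epithelium. Krt17 lay at 1.97 at day 42, -0.27 at day 46, -2.25 in E9.5 stomach, 2.15 in adult stomach, 0.37 in esophagus, -2.28 in lung and -1.44 in intestine. It was as high at day 42 as in adult stomach (-0.18), and lower at day 46 by 2.24. Krt16 lay at -2.85 at day 42, -2.00 at day 46, -0.48 in E9.5 stomach, 0.46 in adult stomach, -0.71 in esophagus, -2.56 in lung and -1.41 in intestine. Adult stomach was highest and day 42 lowest, whereas day 42 was second highest for Krt17. Krt6a and Krt6b, their type II partners, fall outside the naming rule; Krt6a lay at -1.83 at day 42 and -1.97 at day 46 against -1.53 in adult stomach, and Krt6b at -4.70 and -4.13 against -0.02.

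Krt12, a type I keratin known from the cornea, was not well above background in most samples. It was seen at -1.72 at day 46, -3.00 in adult stomach and -2.72 in intestine, and was not well above background at day 42, in E9.5 stomach, in esophagus and in lung. Day 46 was the highest of the 3 arrays with a signal, and the next array, intestine, lay 1.00 below it against a spread between probes of 0.90. Krt9, of palm and sole skin, was highest in adult stomach (-4.21), and Krt2, of upper skin layers, at day 46 (-3.90). Neither stood above its next array beyond the spread between probes (Krt9 0.23 against 0.85, Krt2 0.56 against 0.90). The Krt2 values are those of its brighter probe, and the other was not well above background on any array.

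Hair keratins, which build the hair shaft and its inner root sheath, were not well above background on most arrays. Their median level was between -7.41 (day 42) and -5.61 (adult stomach). Krt35, a type I keratin of the hair shaft, lay at -5.58 at day 46, -6.08 in adult stomach and 0.16 in esophagus, and was not well above background at day 42, in E9.5 stomach, in lung and in intestine. Esophagus stood alone for this gene, and there Krt31 (-4.54) and the letter-named Krt33a (-4.51) were also at their highest. Of 6 measured hair follicle markers 3 were above background in esophagus and 5 in adult stomach, with summed levels of -1.57 and -1.55, and Hoxc13 and Msx2 were not above background in esophagus. Krt84, a type II keratin grouped here with those of the hair shaft, was above background on all 7 arrays, from -4.89 at day 42 to -1.83 in adult stomach. Krt75, of the companion layer of the hair, reached -0.24 in adult stomach, against -3.60 in esophagus, -4.00 at day 46 and lower elsewhere. At day 46, 8 of 12 hair keratins were above background, against 1 of 12 at day 42, where 90.6% and 78.4% of all named genes were. None of these hair keratins exceeded -3.58. The lowest signal that counted as above background was -7.13 on the day 46 array and -5.57 on the day 42 array. The part of that limit in the counts was not tested.

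The first organ comparison asked which keratins divide esophagus from stomach, the organ next to it. Of the 32 keratins compared, 3 passed 4-fold on the side of esophagus and 9 on the side of stomach; over all 14858 genes compared the shares were 5.31% higher and 6.31% lower. Among simple keratins 5 of 6 were lower, including Krt20 (at least 657-fold), Krt8 (408-fold) and Krt18 (106-fold), and their median difference was -6.51 against -0.07 for all genes. Stratified keratins had a median of 0.00: Krt15 (3.93) and Krt4 (2.05) were higher, Krt13 (1.98) and Krt5 (1.63) stayed under 4-fold, and Krt1, Krt10 and Krt12 were lower. Krt35 was also higher, by 6.24, or 3.30 with normexp. With normexp the bound of Krt20 came to -6.72 (log2, -9.36 as reported), and Krt12 (-1.45), Krt23 (-1.92) and Krt4 (1.97) no longer passed 4-fold while Krt13 (2.25) did. Krt23 also missed it with quantile normalization (-1.67), and Krt4 with median centring (1.96). The signal of lung markers in esophagus (summed level 6.34 against 3.04 in adult stomach) moved with this comparison, and its part in the simple keratin levels of esophagus was not tested.

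The comparison of intestine with stomach placed most stratified keratins lower. Stratified keratins had a median difference of -5.63, with 11 of 15 at least 4-fold lower and 0 higher, including Krt1 (-13.25), Krt5 (-9.87) and Krt15 (-7.17). Over the family 2 of 31 were higher and 13 lower, against 7.95% and 7.02% of 14997 genes. The higher genes were Krt20 (5.80) and Krt222 (3.26). Krt222 (1.02) and Krt76 (-1.08) did not pass 4-fold with normexp. Krt8 (0.89) and Krt7 (0.56) stayed within 4-fold, and Krt23 was lower by 4.06.

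The stomach primordium of E9.5 had a keratin set far below that of the adult organ. Of 31 keratins compared, 0 were higher by 4-fold or more and 19 lower, against 11.5% and 18.1% of 15090 genes. The median difference was -4.21 over the family, -4.40 over simple and -6.04 over stratified keratins, against -0.02 over all genes. Krt8 was lower by 4.59, Krt18 by 3.17, Krt19 by 6.38 and Krt23 by 7.85. Krt84 (-2.12) passed 4-fold under none of median centring, quantile normalization and normexp (-1.55 to -1.62), nor Krt12 with normexp (-1.93). Median centring moved the share of higher among all 4-fold calls from 38.8% to 57.4%. Krt7 (-0.43), Krt16 (-0.94) and Krt9 (-0.82) were the measured exceptions within 2-fold among genes above background on both arrays, together with Krt88 (0.20). Squamous markers were above background in 6 of 12 in E9.5 stomach and 12 of 12 in adult stomach. General epithelial markers had a summed level of 0.93 in E9.5 stomach and 4.14 in adult stomach. Cdh1 (-1.68 against 3.64), Epcam (-1.54 against 1.91), Cldn4 and Esrp1 were lower in E9.5 stomach, whereas Cldn7 (0.13 against -1.39) was higher. The part of epithelial content in the keratin differences was not tested.

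Day 42 tissue was set against this primordium. Of 22 keratins compared, 10 were at least 4-fold higher in culture and 1 lower, against 17.1% and 11.5% of 14695 genes. Among simple keratins 5 of 6 were higher, with a median difference of 3.65 against -0.03 for all genes: Krt19 (5.51), Krt8 (3.78), Krt23 (3.67), Krt7 (3.64) and Krt18 (3.35). Krt20 was higher by 1.60, under 4-fold. Of stratified keratins Krt13 (4.25), Krt17 (4.22), Krt15 (2.38), Krt14 (2.30) and Krt4 (at least 4.46-fold) were higher and Krt16 was lower (-2.37). The other Krt13 probe gave 2.73. With normexp Krt4 (0.45), Krt15 (1.83) and Krt14 (1.91) did not pass 4-fold, nor did Krt14 with quantile normalization (1.94). The epithelial markers Epcam, Cdh1, Cldn7, Cldn4 and Esrp1 were all higher at day 42 too. Their summed level was 5.32 against 0.93 in E9.5 stomach. The part of epithelial content in these differences was not tested.

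Against adult stomach, day 42 tissue had Krt8, Krt18 and Krt19 within 4-fold and most stratified keratins lower. Of 31 keratins compared, 1 was at least 4-fold higher at day 42 and 16 were lower; 7.39% and 10.3% of 14819 genes were. The higher gene was Krt7. Among all 4-fold calls 41.8% were higher, and 61.6% with median centring. Krt8, Krt18 and Krt19 differed by -0.81, 0.18 and -0.87, and Krt20 was lower by 2.62. Of 15 stratified keratins 12 were lower, with a median difference of -4.19 against 0.00 over all genes, including Krt15 (-3.33), Krt5 (-5.76) and Krt1 (at least 6696-fold). The bound of Krt1 came to -10.88 with normexp (-12.71 as reported, log2), and Krt12 did not pass 4-fold with normexp (-1.83) or quantile normalization (-1.86), nor Krt84 with normexp (-1.97). Squamous markers were above background in 7 of 12 at day 42, with a summed level of 4.32 against 10.66 in adult stomach. Those above background at day 42 were Sbsn (3.48), Sprr1a (2.91), Crct1, Lor, Lypd3, Ivl and Trp63, and those not were Krtdap, Sprr1b, Sprr3, Calm4 and Dsg3. Mesothelial markers, from a cell layer that also carries simple keratins, were above background in 6 of 6 both at day 42 and in adult stomach. Their summed level was 6.83 against 2.23, and Msln alone lay at 6.77 against 1.97. Wt1, Upk1b and Bnc1 were also higher at day 42, whereas Upk3b (-2.10 against -1.79) and Lrrn4 (-5.42 against -3.30) were lower. Hepatocyte markers were above background in 7 of 7 on both arrays, with 7.84 against 5.42. Alb, Afp, Fgb, Fgg and Hp were higher at day 42, and Ttr (-2.48 against -0.59) and Apoa1 (2.56 against 5.37) lower. The part of these cells in the simple keratin levels was not tested.

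Day 46 tissue gave a similar comparison with adult stomach. Of 34 keratins compared, 2 were at least 4-fold higher and 15 lower, against 6.86% and 9.91% of 15727 genes. Krt7 (3.62) and Krt20 (2.22) were the higher genes. Stratified keratins were lower in 11 of 15 with a median of -3.28, including Krt1 (-12.21), Krt10 (-10.82) and Krt78 (-8.70), whereas Krt15 (-1.60) stayed under 4-fold. Of hair keratins, Krt27 (-1.71) and Krt82 (-1.79) did not pass it with normexp, nor Krt82 with median centring (-1.94). Among all 4-fold calls 40.9% were higher, and 30.9% with normexp. Both culture comparisons use the same adult stomach array.

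**Figure D4:**
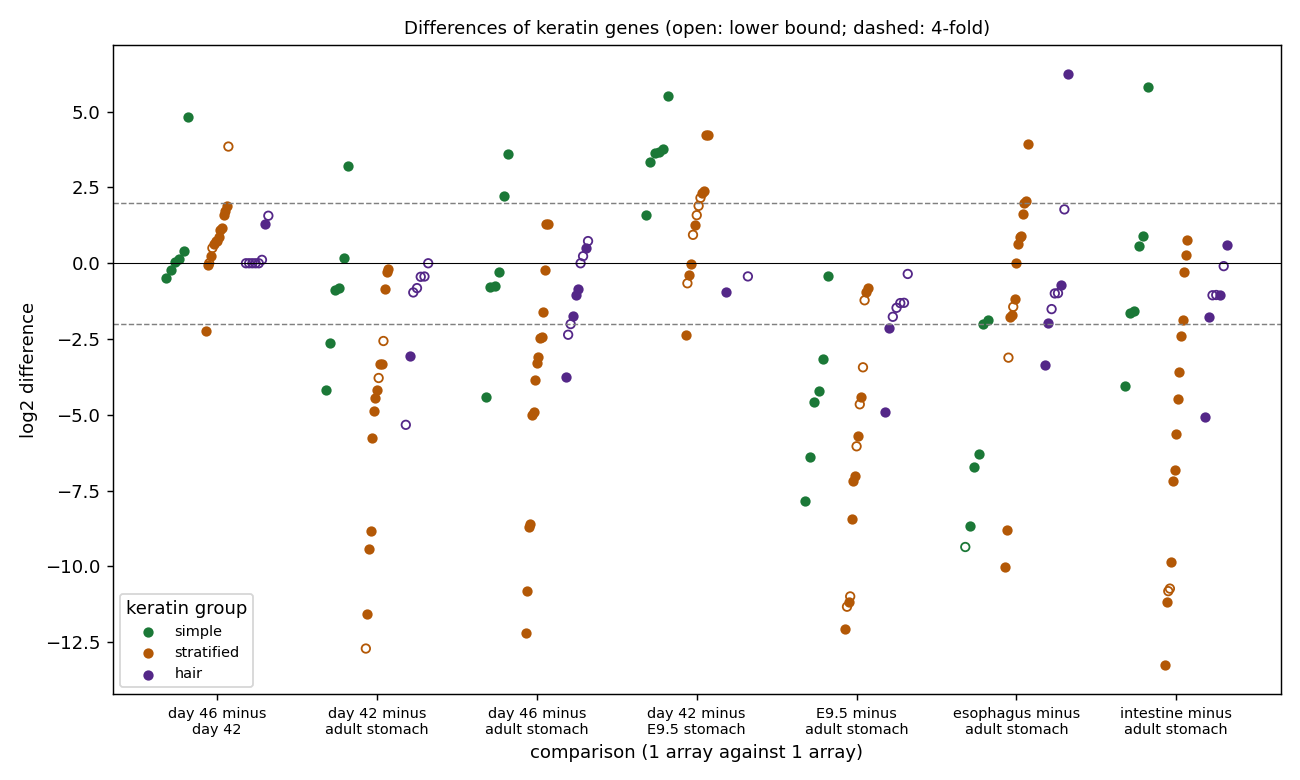
Log2 difference of each simple, stratified and hair keratin in the 7 comparisons, 1 array against 1 array, with the 4-fold threshold dashed and open points for lower bounds; Krt88, Krt90 and Krt222 are not drawn. Stratified keratins reached -12.71 and -13.25 (both Krt1) against adult stomach in day 42 tissue and intestine, and the simple keratins had a median of -6.51 in esophagus.

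The step from day 42 to day 46, with Shh and Bmp4 in the last 4 days, was the comparison with the fewest keratins past 4-fold. Of 32 compared, 2 were higher by 4-fold or more and 1 lower, against 1.04% and 0.764% of 15453 genes. Krt20 went from 1.04 to 5.88, which is 28.5-fold, and Krt12 from not well above background to -1.72, at least 14.4-fold. Krt17 went from 1.97 to -0.27, a difference of -2.24. Krt5 (1.89), Krt15 (1.73) and Krt2 (1.59, with its brighter probe) were higher by less than 4-fold. Krt14 (-0.05), Krt8 (0.03), Krt18 (-0.48), Krt19 (0.12), Krt7 (0.41) and Krt23 (-0.23) stayed within the spread between probes of 0.51. At a 2-fold threshold 10 of 32 keratins were higher and 1 lower, against 9.0% and 6.47% of all genes. Among the 10 was Krt13 (1.10), which came to 0.05 with its other probe and 0.70 with median centring. Krt79 (1.18), Krt90 (a bound of 1.28) and Krt84 (1.31) also lay near 2-fold. Krt5 passed 4-fold with quantile normalization (2.05). Of 12 squamous markers 7 were above background at day 42, and 10 of 11 with a value at day 46, where the share of all named genes above background was 90.6% against 78.4%. Of the 7 above background on both arrays, 5 were higher at day 46, from Lypd3 (-2.01 to -0.89) to Ivl (-2.60 to 1.13) and Sprr1a (2.91 to 6.06), and 2 were lower, Sbsn (3.48 to 2.16) and Crct1 (-0.97 to -1.44). Of 7 intestinal markers above background on both, 1 was higher by 4-fold or more, the goblet cell product Zg16 (-3.45 to 3.40), with Vil1 at 3.31 and 3.79 and Fabp1 at -0.37 and -0.66. Of 7 gastric gland and surface markers above background on both, 2 were higher by 4-fold or more, Gkn2 (0.84 to 7.23) and Muc5ac (-3.32 to 0.28) of surface cells, and 2 lower, Tff2 (3.12 to -4.42) and Pgc (2.06 to -1.48) of deeper gland cells. The part of these cells in the keratin levels was not tested. Among all 4-fold calls 57.6% were higher, and the share was 25.6% with median centring, which moved the median of all genes to -0.39, 33.2% with quantile normalization and 44.3% with normexp. Krt20, Krt12 and Krt5 were higher and Krt17 lower under each of these: Krt20 by 4.43 to 5.27 and Krt12 by at least 2.46 to 3.45 (log2).

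Krt12 and Krt20 lie side by side in the type I cluster on chromosome 11, with no protein-coding gene between them, and both had their 3 highest levels in intestine, day 46 tissue and adult stomach. Krt10 is the neighbour of Krt12 on the other side and did not share that pattern. The 150 bases before the start site of each are shown because these genes are adjacent and 2 of them moved together; capitals mark matches to any motif searched, the genes shown and the motifs were chosen after the values were seen, coordinates are of GRCm38.p6, and the sequences are from RefSeq.
Krt12 (chr11:99422260-99422409, minus strand): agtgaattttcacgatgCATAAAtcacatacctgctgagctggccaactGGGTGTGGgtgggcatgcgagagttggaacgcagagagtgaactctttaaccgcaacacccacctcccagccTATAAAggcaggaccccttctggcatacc
Krt20 (chr11:99438154-99438303, minus strand): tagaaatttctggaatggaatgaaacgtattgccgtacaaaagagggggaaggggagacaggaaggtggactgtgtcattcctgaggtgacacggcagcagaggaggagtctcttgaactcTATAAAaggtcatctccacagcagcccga
Krt10 (chr11:99389365-99389514, minus strand): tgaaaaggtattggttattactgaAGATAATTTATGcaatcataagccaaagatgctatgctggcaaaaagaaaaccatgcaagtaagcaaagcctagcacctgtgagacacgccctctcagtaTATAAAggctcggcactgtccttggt

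A set of 6 motifs was searched on both strands. The TATA box motif, TATAAA, was in 7.57% of all 32851 promoter windows of this length in the table. The Cdx motif was searched as TTTATG and found in 6.33% of them. For GATA factors the letters were AGATAA, with a share of 5.65%. The KLF motif, CCNCNCCC, had a share of 38.1%. For AP-1 the letters TGANTCA were in 4.24%, and for Grainyhead-like factors AACNGGTT was in 1.05%. Counted from the start site, the TATA box motif stood at -29 to -24 in both Krt12 and Krt20 and at -26 to -21 in Krt10. The KLF motif was found in Krt12, and none of the 6 motifs in the windows of Krt5 and Krt14, which are not shown. The Cdx motif was found in Krt12 and Krt10 but not in Krt20, and in Krt10 it directly follows the GATA motif with no overlap. Of 36 keratin windows, which belong to 35 genes, 14 held the TATA box motif, 10 Cdx, 2 GATA, 11 KLF, 1 AP-1 and 0 Grainyhead-like. Neighbouring keratin genes arose by duplication, so these windows are not independent of each other.

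Krt8 and Krt18 are likewise adjacent, at the end of the type II cluster on chromosome 15, where Krt18 is the single type I gene. Their windows are shown because the pair had its lowest level on the same array, esophagus. The KLF motif occurred 2 times in Krt18, both times on the other strand, and none of the 6 motifs occurred in Krt8.
Krt8 (chr15:102004343-102004492, minus strand): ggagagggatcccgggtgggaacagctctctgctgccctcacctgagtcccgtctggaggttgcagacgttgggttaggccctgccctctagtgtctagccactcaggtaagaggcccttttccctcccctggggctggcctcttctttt
Krt18 (chr15:102028066-102028215, plus strand): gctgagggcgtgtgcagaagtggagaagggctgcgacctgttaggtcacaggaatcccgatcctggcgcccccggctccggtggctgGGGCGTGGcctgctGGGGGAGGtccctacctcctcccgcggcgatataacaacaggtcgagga

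Other neighbours also had like patterns. Krt4, Krt79 and Krt78 follow each other directly before Krt8 on chromosome 15, and Krt4 and Krt78 were both highest in esophagus (6.61 and 5.78) and next in adult stomach (4.56 and 4.89), while Krt79 between them was highest in lung. Krt13 and Krt15 adjoin each other on chromosome 11 and were both highest in esophagus, and Krt19, the next gene along, had esophagus among its lowest arrays. Neighbours thus shared their highest array in some places and not in others.

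Partners of a filament pair were followed across the arrays by Spearman's rho, given as a description over arrays that share a platform and, for 4 of them, a slide. It was 0.96 for Krt4 and Krt13 and for Krt5 and Krt15 (7 arrays each), 0.89 for Krt5 and Krt14 (6 arrays), 0.86 for Krt8 and Krt20, 0.75 for Krt1 and Krt10, 0.71 for Krt5 and Krt17, 0.68 for Krt8 and Krt18 and 0.50 for Krt7 and Krt19. Over all 289 combinations of a type II with a type I member above background on some array the median was 0.21, with quartiles of -0.07 and 0.54. Levels not well above background were ranked as well, as for Krt4, which was above background on 4 of 7 arrays. The 289 combinations include members above background on 1 array alone, such as Krt25. Their median is therefore not a like background for the brighter pairs named here. Krt8 and Krt18 parted in intestine, where Krt8 had its highest level (8.99) and Krt18 lay below adult stomach by 1.57. Between the cultures the partners differed as well: Krt5 was higher at day 46 by 1.89 while Krt14 changed by -0.05.

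Genes that anchor keratin filaments, the desmosome and plakin genes, and regulators of stratified epithelium were read from the same arrays. Of 15 desmosome and plakin genes 7 were at least 4-fold lower at day 42 than in adult stomach and 0 higher, against 10.3% and 7.39% of all genes, among them Pkp1, a plaque protein of squamous desmosomes (-4.32), and Evpl, a plakin of the cornified envelope (-4.25). Against E9.5 stomach 8 of 13 were higher at day 42 and 0 lower, against 17.1% and 11.5% of all genes, including Pkp1 (6.05) and Pkp3 (4.87). Between day 46 and day 42 none of 13 differed 4-fold, where 1.04% of all genes were higher and 0.764% lower, with Dst (1.10) and Plec (-0.98) at the extremes. In intestine 5 of 15 were lower and 2 higher than in stomach, against 7.02% and 7.95% of all genes. In esophagus 2 of 15 were lower and 2 higher, against 6.31% and 5.31%, with the simple epithelial cadherin Dsg2 at -3.41 and Dsg3, of stratified epithelium, at 2.08.

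Of 14 regulators of stratification, 8 were at least 4-fold lower at day 42 than in adult stomach and 0 higher, against 10.3% and 7.39% of all genes. Trp63, the master regulator of basal cells, lay at -4.90 at day 42, -3.66 at day 46, -0.86 in E9.5 stomach, 1.38 in adult stomach and 2.19 in esophagus, and was not well above background in lung and intestine. Both cultures were below E9.5 stomach in Trp63 and above it in Krt5. At day 46 Klf4 was higher by 1.56 and no regulator differed 4-fold from day 42. In E9.5 stomach 11 of 14 regulators were lower than in adult stomach and 0 higher, against 18.1% and 11.5% of all genes. Of 16 other intermediate filament genes, 4 were lower and 0 higher at day 42 against adult stomach, where 10.3% and 7.39% of all genes were. In E9.5 stomach 6 of 16 were higher and 5 lower, where 11.5% and 18.1% of all genes were, with the neural genes Nefl (2.28 against -2.78) and Nefm (0.94 against -4.27) above adult stomach.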

How the data were processed

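RNA was hybridised to 1-colour Agilent 4x44K mouse arrays, 1 array for each of 7 samples. The deposited scanner files hold intensity values (processed signal), background-subtracted by the scanner software per the file headers; the authors' deposited table holds log2 values of the same arrays and served as an alternative. Control and outlier spots were dropped, spots of a probe averaged, log2 taken and the 75th percentile of each array subtracted. A probe was above background where a share of 0.5 or more of its spots carried the scanner's flag. Probes were named through RefSeq gene tables, and a gene took its probe with the highest mean. Where 1 side was below background, the difference is a bound against the higher of the array's lowest detected signal and the probe's own. The threshold was 4-fold. There were 7 comparisons, with no test, since each group had 1 array. Counting was checked on simulated data with seeded changes well past the threshold and noise below the spread between probes. That checks the counting code and not the error of these arrays. Genes named in the text are the family's members, with other genes only from fixed lists. The members and lists were chosen with earlier results of these data known. Alternatives were median centring, quantile normalization, normexp background correction (limma), no background filter, a 2-fold threshold, the mean over probes, the authors' deposited log2 table and, chosen after seeing the data, the other Krt13 probe and equal numbers of detected genes.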

Additional observations from a re-analysis of the deposited data

Results flagged for a closer look

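Krt20 was set against adult stomach on opposite sides at the 2 culture times: -2.62 (log2) at day 42 and 2.22 at day 46, on 1 array each and against the same stomach array. The difference was not tested. The lung array entered no comparison, and 2 keratins had their highest detected level there: Krt79 at 0.62 and Krt25, of the inner root sheath of the hair, at -4.40, detected on no other array.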

How the results depend on the processing

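No paired analysis was possible because each group had 1 array. Of 1299 recomputed keratin differences 1194 stayed within the spread between probes. That total includes settings that could move few of them or none. The 130 differences kept for being above background on both arrays are the same values by construction. The other Krt13 probe alters that gene alone, and the mean over probes only genes with several probes. The authors' table holds nearly the same values. Median centring shifts all differences of a comparison alike, apart from bounds held at 0, and moved 0 of 167 beyond the spread. It still carried differences near 4-fold across that threshold, such as Krt84 in E9.5 against adult stomach (-2.12 to -1.55). Normexp moved 58 differences and left 109, no background filter moved 21 and left 146, and quantile normalization moved 15 and left 152. None past 4-fold changed sign. For day 46 against day 42 the count of keratins past the threshold was 3, 5 without a filter and 11 at 2-fold. The 11 include Krt13, which did not pass 2-fold with its other probe. Over all 15453 genes 160 were higher and 118 lower, and 1390 and 1000 at 2-fold. Without a filter 500 and 160 of 17039 were. For esophagus against stomach the keratin count was 12, and 23 at 2-fold. Over all 14858 genes 789 were higher and 938 lower there, and 2084 and 2313 at 2-fold. Normexp was not run for counts above background, since that flag is the scanner's. Low signals limit most hair keratins to bounds.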
